A study of Mus musculus with 479 samples.

Results

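The erythroid and hemoglobin genes examined in 479 mouse tissue libraries were Slc4a1, Hba-a1, Hba-a2, Hbb-bs, Hbb-bt, Alas2, Epb42 and Tfrc. These 8 genes were chosen by name, as genes whose transcripts mark blood in a tissue sample, and all 8 were found among the 24475 gene identifiers of the tables. The libraries held messenger RNA of 4 tissues (heart, kidney, liver, lung) from mice of 2 lines, each on a 100% C57BL/6NTac background. The tested mice were heterozygous (Het) for a modified Dchs1 or Fat4 gene, made with VelociGene technology, and the controls were wild-type (WT) littermates of each line. Each of the 16 groups of line, tissue and genotype held 30 libraries, except Dchs1 Het liver with 29. The labels give no sex, age, litter or collection day and do not state that each library came from a separate animal, so a p-value here measures how libraries spread, which may in part be technical.

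Circulating mouse red cells have no nucleus but keep globin messenger RNA for some time, and young red cells (reticulocytes) carry most of it, so blood left in the vessels of an organ contributes these transcripts to a whole-tissue sample. Hemoglobin pairs alpha globin, from Hba-a1 and Hba-a2, with beta globin, from the Hbb genes, around heme. Alas2 encodes the erythroid form of the first enzyme of heme synthesis, Slc4a1 the anion exchanger band 3 of the red cell membrane, Epb42 the membrane protein 4.2 bound to band 3, and Tfrc the transferrin receptor that brings iron into erythroblasts and into most dividing cells. Slc4a1 is also expressed in the kidney, in acid-secreting intercalated cells of the collecting duct.

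Libraries held 10720364 to 32282525 reads assigned to genes (median 18978025), of which the 6 globin entries tested below took 0.0167% to 3.79% (median 0.194%). The targeted gene was lower in Het than in WT libraries of each line and tissue, with log2 fold changes of -1.24 to -1.10 for Dchs1 and -1.07 to -0.95 for Fat4 over the 4 tissues. Each tissue expressed its own 6 marker genes at a median of at least 0.5 TPM (transcripts per 1000000, scaled by transcript length) in every group. Lung markers, which summed to a median of 0.404 to 0.631 TPM in the heart groups, had a highest library in each of them far above that, at 264 TPM in Dchs1 Het, 430 TPM in Dchs1 WT, 350 TPM in Fat4 Het and 912 TPM in Fat4 WT hearts, and their part in the results below was not tested.

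The globin genes come in near-identical pairs, which sets how far a single entry can be read. The coding sequences of Hba-a1 and Hba-a2 have 429 bases and differ at 1 (99.77% identity), written C381T from Hba-a1 to Hba-a2, with positions counted from the first coding base. Those of Hbb-bs and Hbb-bt have 444 bases and differ at 1 (99.77% identity), C417T from Hbb-bs to Hbb-bt. A stretch of 90 coding bases that holds each difference is shown from GENCODE transcripts (GRCm38), coding strand, with the differing base in capitals. The stretches are Hba-a1 at chr11:32284263-32284352 (+), Hba-a2 at chr11:32297080-32297169 (+), Hbb-bs at chr7:103826692-103826781 (-) and Hbb-bt at chr7:103812683-103812772 (-), all within exons. In the Hbb pair the differing base is the last one shown.
Hba-a1: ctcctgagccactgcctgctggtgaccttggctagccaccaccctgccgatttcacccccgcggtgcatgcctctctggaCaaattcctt
Hba-a2: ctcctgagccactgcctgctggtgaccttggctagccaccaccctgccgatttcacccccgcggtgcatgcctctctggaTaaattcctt
Hbb-bs: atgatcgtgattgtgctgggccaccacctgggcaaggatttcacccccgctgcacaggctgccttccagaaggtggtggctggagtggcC
Hbb-bt: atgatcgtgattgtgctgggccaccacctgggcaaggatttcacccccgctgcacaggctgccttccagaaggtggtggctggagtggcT

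A read that covers none of the differing bases cannot be assigned to 1 gene of a pair. Of all 75-base windows of the transcript, 62.24% in Hba-a1 and 81.04% in Hba-a2 also occurred in the partner, as did 64.26% in Hbb-bs and 56.6% in Hbb-bt. The tables listed 2 further beta globin entries, Hbb-b1 and Hbb-b2, which the reference places on an alternate scaffold of chromosome 7 and which belong to another beta globin haplotype than the Hbb-bs and Hbb-bt pair of C57BL mice. Hbb-b1 nevertheless took a median of 82.3% of all beta globin reads, Hbb-bt and Hbb-b2 took 8.62% each, and Hbb-bs took 0.426%. Hbb-bt and Hbb-b2 had the same estimated count, within 0.001 reads, in 479 of 479 libraries. Hba-a1 took 93.7% of alpha globin reads and Hba-a2 6.34%. Estimates of under 0.5 reads occurred for Hbb-bs in 141 libraries, for Hba-a1 in 5 and for Hba-a2 in 6, all of the Hba-a1 and Hba-a2 cases in liver and none in both genes of 1 library. Single globin entries are therefore uncertain, and sums over the 2 alpha and the 4 beta entries are given beside them in the Het comparisons.

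On GRCm38.p6, Hba-a1 lies at chr11:32283672-32284486, Hba-a2 at chr11:32296492-32297310 and Slc4a1 at chr11:102348820-102365281. Hbb-bs lies at chr7:103826523-103827928 and Hbb-bt at chr7:103812524-103813923, which is 1.93 and 1.94 Mb from Dchs1 at chr7:105752989-105788355. Alas2 lies at chrX:150547417-150570622, Epb42 at chr2:121017891-121036877 and Tfrc at chr16:32608896-32632794. Alas2 and Hba-a1 had r of 0.820 to 0.994 among WT libraries of heart, kidney and lung, but 0.011 in Dchs1 WT liver and 0.539 in Fat4 WT liver (30 libraries each, log2 CPM, a description). Of the Dchs1 WT livers, 4 had an estimate of under 0.5 reads for Hba-a1, and Alas2 with summed beta globin gave r = 0.201 there. The 250 bases before the RefSeq starts of Alas2 and Hba-a1 are shown (GRCm38.p6, Alas2 at chrX:150547167-150547416 (+) and Hba-a1 at chr11:32283422-32283671 (+)), with matches to the GATA motif in capitals.
Alas2: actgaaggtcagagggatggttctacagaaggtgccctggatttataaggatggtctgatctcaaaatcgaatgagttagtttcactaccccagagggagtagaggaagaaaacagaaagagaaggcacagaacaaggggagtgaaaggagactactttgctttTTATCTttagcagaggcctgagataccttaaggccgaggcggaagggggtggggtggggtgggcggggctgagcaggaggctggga
Hba-a1: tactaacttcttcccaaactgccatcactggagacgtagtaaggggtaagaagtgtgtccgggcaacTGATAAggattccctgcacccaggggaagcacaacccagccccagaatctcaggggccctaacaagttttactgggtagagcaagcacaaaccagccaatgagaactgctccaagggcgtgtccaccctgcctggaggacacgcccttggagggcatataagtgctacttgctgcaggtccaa

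GATA1 is the lead transcription factor of red cell development, and the letters searched on both strands were AGATAA or AGATAG and likewise TGATAA or TGATAG. The window held a match in 5 of the 7 members with a promoter entry (Hba-a1, Hba-a2, Hbb-bs, Alas2 and Epb42), against 26.54% of all 32851 promoters. The windows of Hba-a1 and Hba-a2 share nearly all their bases and hold the same match, so these are not separate matches. Members were counted by gene and the share over all promoters by promoter entry. A match describes the letters only.

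Among WT libraries, globin transcripts stood highest in lung and lowest in liver in both lines. Hba-a1 had a median of 15996 TPM in Dchs1 WT lung, 3057 in heart, 2645 in kidney and 741 in liver, and of 14745, 2594, 2730 and 797 TPM in Fat4 WT lung, heart, kidney and liver. Per length, Hbb-bt stood at 1404, 298, 209 and 79.5 TPM in Dchs1 WT lung, heart, kidney and liver. Summed alpha and summed beta globin were close to each other in every tissue, with 17132 and 14422 TPM in Dchs1 WT lung and 932 and 734 TPM in Dchs1 WT liver. The reading of heart depended on the scaling. With limma on log2(TPM + 1), the log2 difference of WT heart minus WT lung in Hba-a1 was -2.19 (Dchs1 line) and -2.13 (Fat4 line), whereas edgeR with TMM scaling of the counts gave -0.45 and -0.13 (adjusted p = 0.171 and 0.575). Mitochondrial transcripts, which are among the genes of both scales, made up a median of 43.0% of reads in Dchs1 WT heart and 4.99% in Dchs1 WT lung. Their part in these differences was not tested. On these scales the median difference over all genes of heart minus lung was itself -1.30 (limma) and -0.18 (edgeR) in the Dchs1 line and -1.35 and -0.15 in the Fat4 line. Which tissue stood nearest to heart also depended on it: WT heart minus WT kidney in Hba-a1 came to 1.18 in edgeR (adjusted p = 0.000436) and 0.38 in limma (adjusted p = 0.458) in the Dchs1 line, so heart lay nearer to lung in edgeR and nearer to kidney in limma.

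Alas2 followed another order than the globins. In Dchs1 WT libraries its median was 96.6 TPM in lung, 59.6 in liver, 22.0 in heart and 17.3 in kidney, and in Fat4 WT libraries 94.0, 47.6, 20.4 and 17.6. Liver, lowest in every globin sum, thus stood next to lung in Alas2. WT kidney minus WT liver in Alas2 came to -1.99 (Dchs1) and -1.97 (Fat4) on the log2 scale in edgeR, while WT liver against WT lung came out at +0.64 and +0.55 in edgeR and -0.80 and -0.91 in limma.

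Slc4a1 was a kidney transcript here. Its median was 9.52 TPM in Dchs1 WT kidney and 12.4 in Fat4 WT kidney, against 1.13 and 0.964 in lung, 0.348 and 0.298 in heart and 0.0714 and 0.0862 in liver. WT kidney exceeded WT liver by 6.51 and 6.08 and WT lung by 3.96 and 4.42 on the log2 scale (edgeR), while heart against lung depended on the scaling. WT heart minus WT lung in Slc4a1 came to -0.10 (Dchs1 line, adjusted p = 0.634) and +0.48 (Fat4 line, adjusted p = 0.0471) in edgeR, and to -0.64 (adjusted p = 4.37e-11) and -0.54 (adjusted p = 2.19e-08) in limma on log2(TPM + 1). Epb42 was near the limit of detection, with medians of 0.212 and 0.266 TPM in WT kidney and 0.0363 and 0.0511 in WT liver. Tfrc, the iron uptake receptor, was highest in lung by TPM (24.03 and 25.8) and lowest in heart (2.99 and 3.15), and kidney and lung did not differ in edgeR (-0.04, adjusted p = 0.659, and -0.17, adjusted p = 0.0512). Liver against lung in Tfrc turned with the scaling. EdgeR called liver higher than lung in both lines, while liver minus lung in limma on log2(TPM + 1) came to -1.06 and -0.99. A call between tissues was the usual case: in the Dchs1 line 87.1% of all genes were called between heart and kidney, 89.4% between heart and liver, 88.5% between heart and lung, 87.2% between kidney and liver, 89.3% between kidney and lung and 92.5% between liver and lung. The Fat4 line gave 89.5%, 90.7%, 90.4%, 89.6%, 91.4% and 94.5% for the same pairs, and of 48 member tests in each line, 39 (Dchs1) and 40 (Fat4) were called.

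**Figure D1:**
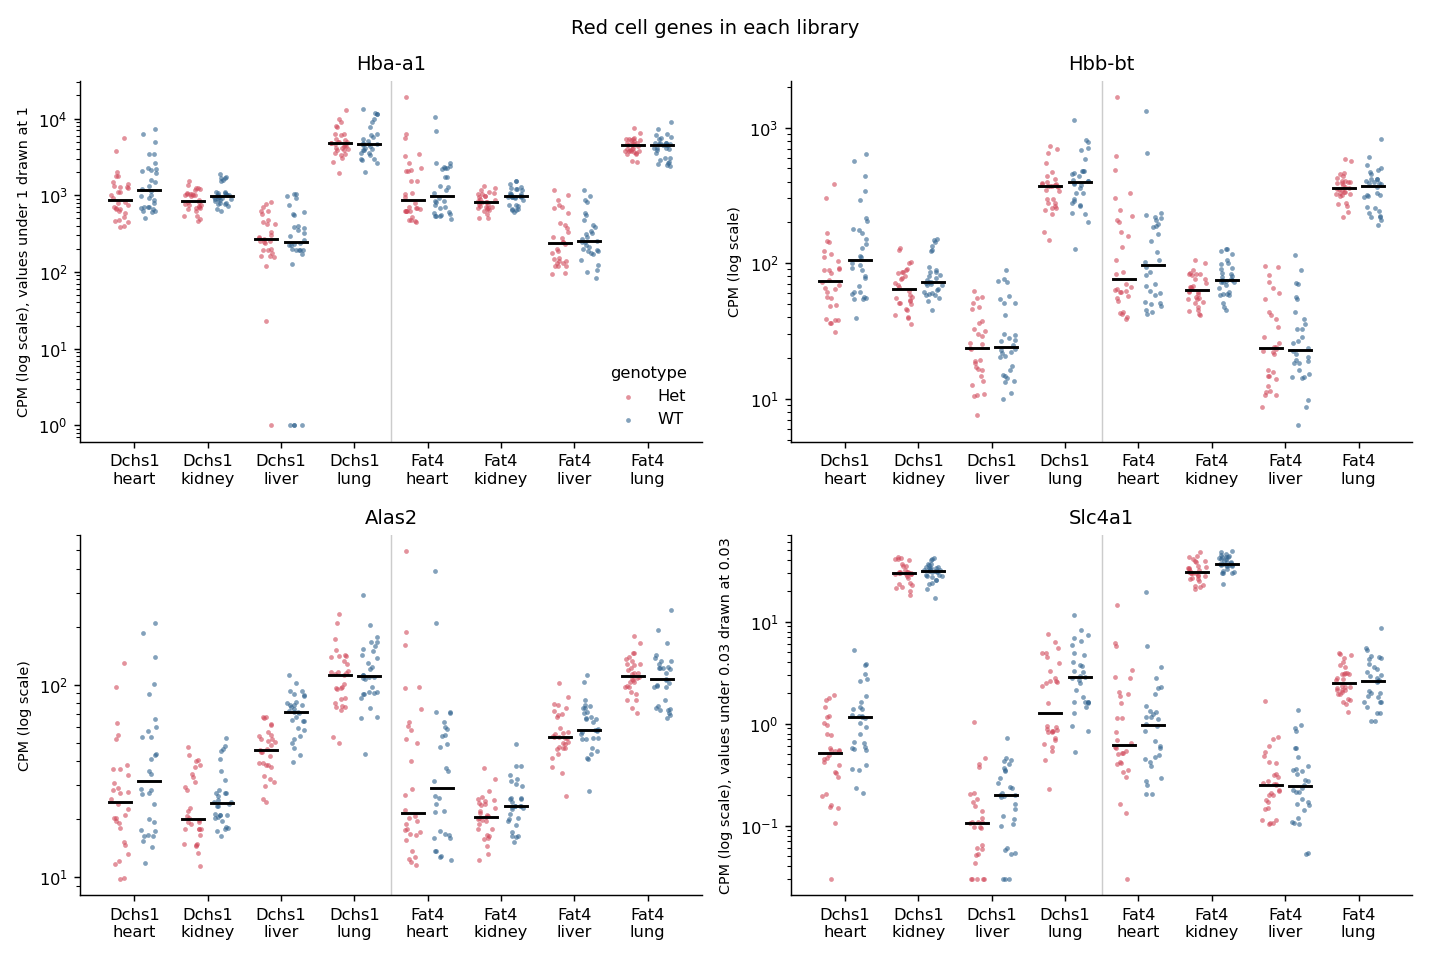
Counts per 1000000 counts of a library (CPM, log axis) of Hba-a1, Hbb-bt, Alas2 and Slc4a1 in every library of the 16 groups, Het in red left of WT in blue, with the median as a black bar; values under 1 for Hba-a1 and under 0.03 for Slc4a1 are drawn at those limits. Lung groups are highest in the globins, heart groups have the longest upper tails, Slc4a1 is highest in kidney, and every Het range overlaps its WT range.

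The spread between WT libraries was much wider in heart than in kidney. In heart, the 30 Dchs1 WT libraries ran from 508 to 7413 CPM of Hba-a1 around a median of 1168, and the 30 Fat4 WT libraries from 498 to 10351 around 986. In kidney, they ran from 630 to 1887 around 969.8 (Dchs1) and from 609 to 1543 around 969.5 (Fat4). A few heart libraries with many times the median made the range, while the medians of heart and kidney were close. Library numbers fall into runs separated by gaps, and heart medians differed between them. Median Hba-a1 in Dchs1 WT heart was 952 CPM in the longest run (24 libraries) and 6355, 4314 and 2301 CPM in the others (1, 2 and 3 libraries). In Fat4 WT heart it was 839 CPM (25 libraries) and 1750 CPM (5 libraries). In WT kidney the longest run stood at 948 (Dchs1) and 989 CPM (Fat4) and the others at 676 to 1098 CPM. Medians also differed between the runs of Dchs1 WT lung, at 4295 CPM (24 libraries) and 10656 CPM (6 libraries). Dchs1 WT liver stood at 223 CPM (23 libraries) and 924 CPM (7 libraries), and Fat4 WT liver at 273 CPM (27 libraries) and 212 CPM (3 libraries). The part of the runs was not tested. The coefficient of variation (CV) of the summed globins was 92.5% to 134% in WT heart, 68.0% to 79.3% in WT liver, 33.4% to 52.9% in WT lung and 25.8% to 33.0% in WT kidney over both lines. Highest over lowest library came to 13.4 to 27.6 in WT heart and 2.45 to 3.09 in WT kidney.

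Alas2 spread as widely as the globins in heart (CV 97.9% to 141%) but not in liver (24.1% to 28.4%). Slc4a1 varied widely in heart, with a CV of 85.6% to 192%, and narrowly in kidney, at 16.2% to 18.4%. The biological coefficient of variation that edgeR estimated for Hba-a1 in Dchs1 WT heart was 69.8%, above that of 99.7% of genes there (median of genes 10.6%), and it was 76.2% in Fat4 WT heart. Slc4a1 in Dchs1 WT kidney had 18.7%, and Tfrc had 19.0% in Dchs1 WT heart and 13.5% in Fat4 WT heart. Het hearts varied to a like extent, with a CV of the summed globins of 89.3% to 163%.

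Across WT libraries of 1 tissue, alpha and beta globin rose and fell together. Summed alpha and summed beta globin (log2 CPM) had Pearson's r of 0.976 to 0.998 over the 8 WT groups of 30 libraries (permutation p = 1e-05 in each, the smallest that 100000 permutations can give; 40 relations in the family, adjusted p = 2.35e-05). Alas2 followed the summed beta globin closely in heart, kidney and lung. In Dchs1 WT heart r was 0.994 and Spearman's rho 0.980, with r = 0.991 without the 2 libraries farthest from the median of beta globin, and in Fat4 WT heart r was 0.998, rho 0.996 and r without 2 libraries 0.995. Kidney gave r of 0.947 and 0.967 and rho of 0.926 and 0.961, and lung gave r of 0.900 and 0.960 and rho of 0.889 and 0.927, all with a permutation p = 1e-05 and adjusted p = 2.35e-05.

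In liver the relation of Alas2 to beta globin was looser and passed in the Fat4 line only. Dchs1 WT liver gave r = 0.201 and rho = 0.266 between Alas2 and beta globin, with r = 0.077 without 2 libraries (permutation p = 0.286, adjusted p = 0.336). Fat4 WT liver gave r = 0.587, rho = 0.560 and r = 0.473 without 2 libraries (permutation p = 0.00062, adjusted p = 0.00113).

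**Figure D2:**
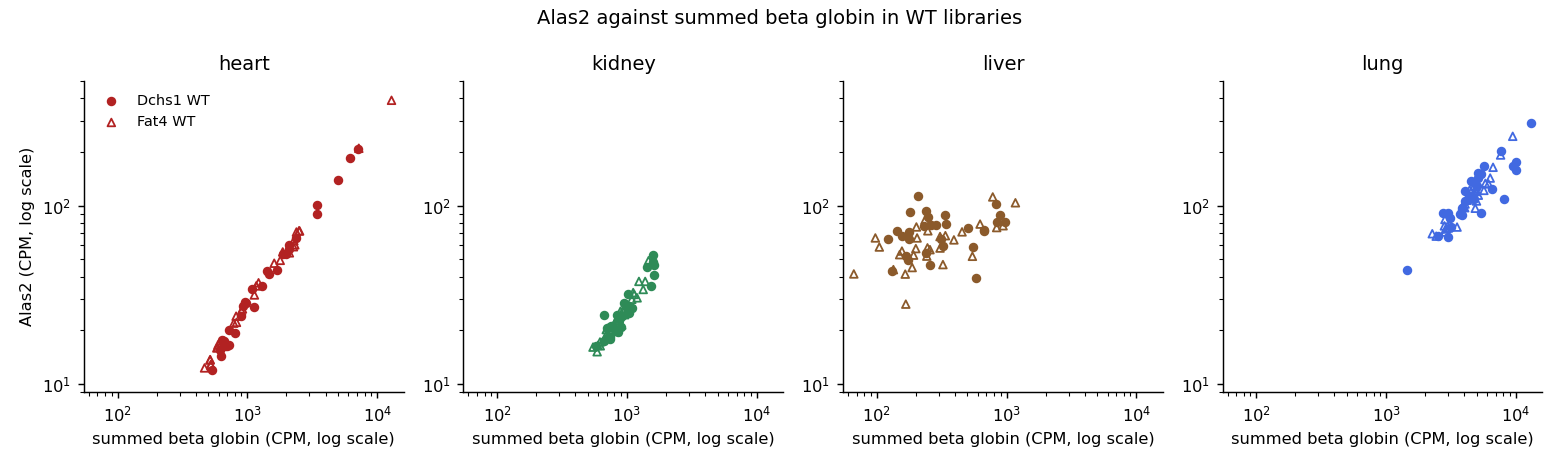
Alas2 against summed beta globin, both in CPM on log axes, in the 60 WT libraries of each tissue, with filled circles for the Dchs1 line and open triangles for the Fat4 line. Points lie along a line in heart, kidney and lung (r from 0.900 to 0.998) and scatter in liver (r = 0.201 and 0.587).

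Slc4a1 followed the beta globins in heart (r = 0.836 and 0.916, permutation p = 1e-05 and adjusted p = 2.35e-05 in both, rho = 0.782 and 0.899, r without 2 libraries 0.782 and 0.847) and in liver (r = 0.575 and 0.844, rho = 0.592 and 0.794, r without 2 libraries 0.514 and 0.797, permutation p = 0.00088 and 1e-05, adjusted p = 0.00153 and 2.35e-05). It did not pass the threshold in the kidneys (r = 0.282 and 0.304, rho = 0.169 and 0.280, permutation p = 0.131 and 0.103, adjusted p = 0.158 and 0.129, r without 2 libraries 0.163 and 0.249). In lung it passed in the Fat4 line (r = 0.711, rho = 0.642, r without 2 libraries 0.638, permutation p = 3e-05, adjusted p = 6e-05) and not in the Dchs1 line (r = 0.323, rho = 0.279, permutation p = 0.0812, adjusted p = 0.107). The Dchs1 lung value rested on 2 libraries, without which r was 0.011.

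Tfrc went its own way. Its r with beta globin was 0.035 in Dchs1 WT heart, -0.418 in kidney, -0.072 in liver and -0.702 in lung, and among Fat4 WT libraries 0.477 in heart, -0.379 in kidney, 0.329 in liver and 0.106 in lung. Of these 8 relations, 3 passed: Dchs1 kidney (rho = -0.342, r without 2 libraries -0.326, permutation p = 0.0219, adjusted p = 0.0337), Dchs1 lung (rho = -0.555, r without 2 libraries -0.680, permutation p = 3e-05, adjusted p = 6e-05) and Fat4 heart (rho = 0.577, r without 2 libraries 0.528, permutation p = 0.0103, adjusted p = 0.0164). Their signs differed, and whether the lines differ was not tested. In Dchs1 WT lung, median Tfrc was 72.0 CPM in the longer number run (24 libraries) and 39.7 CPM in the other (6 libraries). Median Hbb-bt stood at 368 and 644 CPM in these 2 runs. The part of the runs in the relation of Tfrc to summed beta globin was not tested.

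The genes most like Alas2 among WT libraries, by mean r over the 8 WT groups and among 11309 genes tested in every comparison, included Hbb-b2 (0.829) and Hbb-b1 (0.813), then Bpgm (0.777), Ube2l6 (0.759), Isg20 (0.610), Gng11 (0.532), Sec61g (0.525), Fam220a (0.512) and Sparc (0.505). Bpgm encodes the red cell enzyme bisphosphoglycerate mutase. These values are descriptions over 30 libraries a group.

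Het libraries were set against WT libraries in each line and tissue with edgeR's quasi-likelihood test, p-values adjusted by Benjamini-Hochberg over all genes tested. Of 64 tests (8 members in 8 comparisons), 55 passed the filter on low counts, and 13 had an adjusted p under 0.05, 11 lower and 2 higher in Het. The share of all genes called ran from 0.136% in Fat4 lung to 50.2% in Dchs1 heart, and the members' share stood above it in Dchs1 heart and Fat4 kidney and below it in the other 6 comparisons. Epb42 passed the filter only in the kidneys, Slc4a1 failed it in both livers and Hbb-bs in Fat4 liver. In whole tissue, fewer red cells in a sample and less RNA per red cell cannot be told apart.

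**Figure D3:**
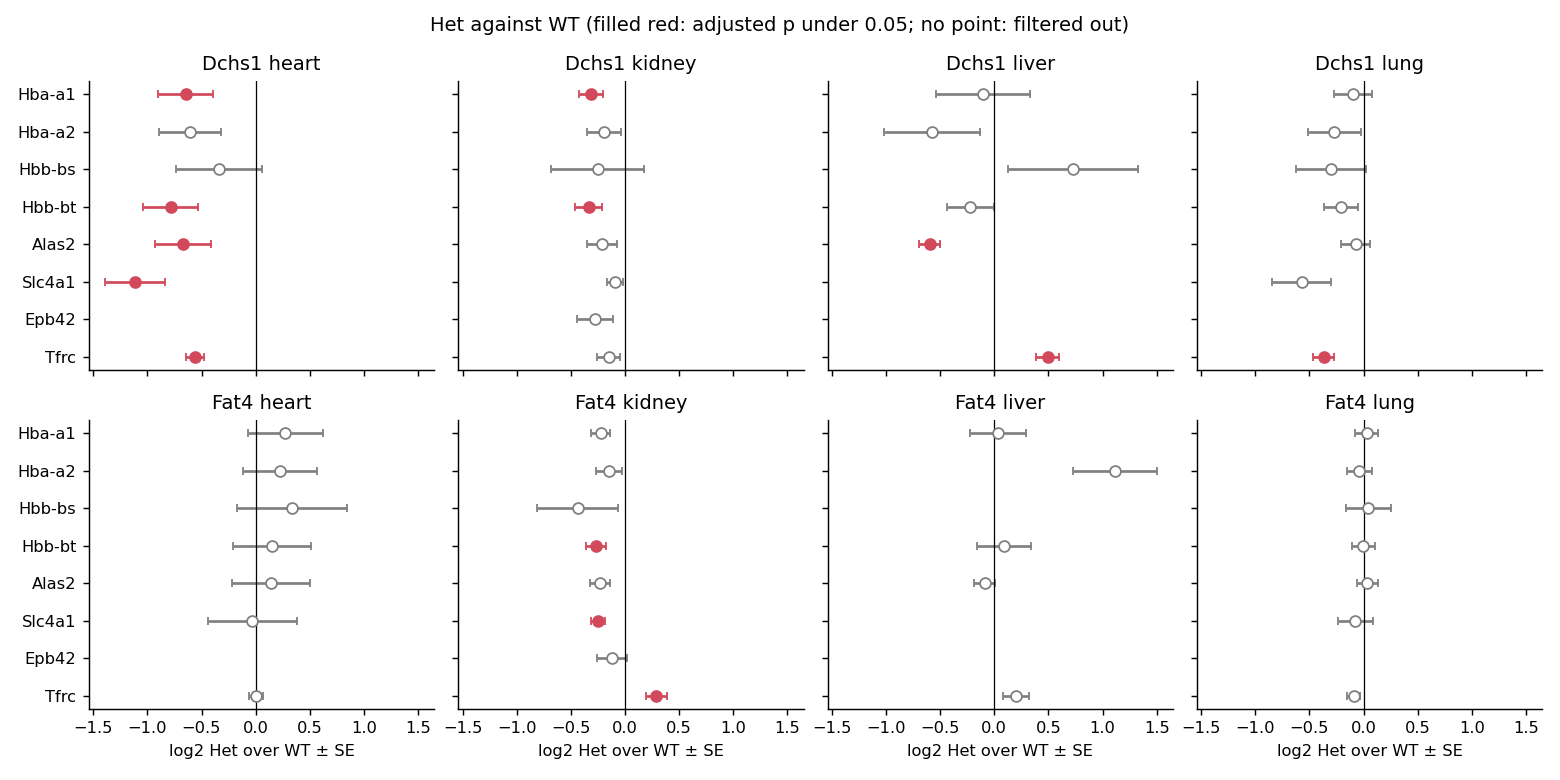
Log2 fold change, Het over WT, of the 8 members in the 8 comparisons, with the standard error as bars; filled red points have an adjusted p under 0.05 and a missing point failed the filter on low counts. Points lie left of 0 in Dchs1 heart for all 7 members tested, close to 0 in Fat4 lung, and Tfrc lies left of 0 in Dchs1 heart and lung and right of 0 in Dchs1 liver and Fat4 kidney.

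In Dchs1 heart, Slc4a1, Hba-a1, Hbb-bt, Alas2 and Tfrc fell in Het libraries. Of 7 members tested, 5 were called and all 5 were lower, where 50.2% of all genes tested were called, 24.1% lower and 26.1% higher. Since Slc4a1, Hba-a1, Hbb-bt and Alas2 rise and fall together between libraries, their calls are not separate pieces of evidence. Tfrc did not go with them, at r = 0.035 with summed beta globin among Dchs1 WT hearts. The median log2 fold change of the 7 was -0.65, against 0.0041 for all genes.

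Slc4a1 ran from 0 over a median of 0.516 to 1.92 CPM in Dchs1 Het hearts, against 0.208, 1.16 and 5.22 CPM in WT hearts. The ranges overlapped, but 24 of 30 Het libraries lay below the WT median and 7 below the lowest WT library (log2 fold change -1.12 ± 0.278, SE; adjusted p = 0.000609). Hba-a1 ran from 380 over 872 to 5647 CPM in Het hearts, against 508, 1168 and 7413 CPM in WT hearts. Of the Het libraries 19 lay below the WT median and 5 below the lowest WT library (-0.65 ± 0.258; adjusted p = 0.0318). Hbb-bt ran from 31.2 over 74.2 to 385 CPM in Het hearts, against 39.6, 105.6 and 642 CPM in WT hearts, with 22 Het libraries below the WT median (-0.79 ± 0.251; adjusted p = 0.00721). Alas2 ran from 9.78 over 24.7 to 130 CPM in Het hearts, against 11.9, 31.5 and 209 CPM in WT hearts, with 21 Het libraries below the WT median (-0.67 ± 0.260; adjusted p = 0.0277). The globin and Alas2 changes were thus close in size, and each Het range lay mostly inside the WT range.

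Hba-a2 (-0.60 ± 0.285, adjusted p = 0.0707) and Hbb-bs (-0.34 ± 0.398, adjusted p = 0.499) did not pass in Dchs1 heart. Summed over near-identical entries, alpha globin came to -0.64 ± 0.259 (adjusted p = 0.0329) and beta globin to -0.66 ± 0.256 (adjusted p = 0.0274). With limma on log2(TPM + 1), 2 members were called in place of 5, Hbb-bt (-0.61) and Tfrc (-0.40). Library numbers fall into runs separated by gaps, the only stand-in for a batch, and within the longest run (24 Het and 24 WT libraries) 5 were called, with Slc4a1 at -1.05, Hbb-bt at -0.77, Hba-a1 at -0.66 and Alas2 at -0.59. Platelet genes moved the same way: 5 of the 6 tested on a list of 12 were lower, beside 24.1% of all genes. Among them were Pf4 (-0.58 ± 0.153) and Ppbp (-1.19 ± 0.336). The list summed to 6.05 to 62.3 TPM in Het hearts (median 11.8) and 9.12 to 78.2 TPM in WT hearts (median 15.4), with 7 and 6 of its 12 genes under 0.5 TPM. Among WT hearts the platelet list followed Hba-a1 with r of 0.854 and 0.851 in the Dchs1 and Fat4 lines (rho 0.804 and 0.904, r without 2 libraries 0.789 and 0.790, permutation p = 1e-05, adjusted p = 0.00016 over that family). This relation did not hold in every tissue. Between the platelet list and Hba-a1, r was negative among WT lungs, at -0.33 (Dchs1, adjusted permutation p = 0.196) and -0.563 (Fat4, adjusted permutation p = 0.0116). WT livers gave 0.289 (Dchs1, adjusted permutation p = 0.274) and 0.605 (Fat4, adjusted permutation p = 0.00484). Neither line passed among WT kidneys (r = 0.111 and 0.442, adjusted permutation p = 0.768 and 0.0742). The part of the platelet list in the red cell result was not tested. Of 6 neutrophil genes tested in Dchs1 heart 1 was higher and 0 lower, beside 26.1% higher and 24.1% lower among all genes. The higher one was Retnlg, at +0.98 (edgeR, adjusted p = 0.000126). Of 3 B cell genes tested 1 was lower, and the 1 T and NK cell gene tested was not called.

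Fat4 heart gave 0 calls among 7 members in edgeR, in DESeq2 and at an unadjusted p under 0.05, where 1.6% of all genes tested were called, 0.628% lower and 0.969% higher. Hba-a1 ran from 444 over 873 to 18872 CPM in Fat4 Het hearts, against 498, 986 and 10351 CPM in WT hearts, and its log2 fold change was +0.27 ± 0.345 (adjusted p = 0.743). Alas2 ran from 11.6 over 21.7 to 493 CPM in Fat4 Het hearts and from 12.3 over 29.0 to 390 CPM in WT hearts (+0.15 ± 0.360; adjusted p = 0.879). Summed alpha globin came to +0.27 ± 0.343 and beta globin to +0.17 ± 0.351 (adjusted p = 0.745 and 0.850). In both genes the Het median was the lower one and the fold change positive, and 1 Het library stood above every WT library. The direction was not stable: with the number run as a covariate, Hba-a1 came to -0.23, Hbb-bt to -0.24 and Alas2 to -0.27. A run of library numbers held 3 Het and 0 WT hearts, with a median Hba-a1 of 5618 CPM. The longest run stood at 675 CPM in its 23 Het and 839 CPM in its 25 WT hearts.

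The difference between the lines was tested directly in heart, where it was called for 25.5% of all genes, and did not pass for Slc4a1, the globins or Alas2. Dchs1 minus Fat4 came to -1.08 for Slc4a1 (adjusted p = 0.116), -0.93 for Hba-a1 (adjusted p = 0.111), -0.94 for Hbb-bt (adjusted p = 0.109) and -0.82 for Alas2 (adjusted p = 0.181). The lower red cell transcripts of Dchs1 Het hearts are therefore not shown to differ from Fat4 hearts.

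In the kidneys, Hba-a1 and Hbb-bt fell in Dchs1 Het libraries and Slc4a1 and Hbb-bt in Fat4 Het libraries. In Dchs1 kidney 2 of 8 members were called, both lower, where 47.2% of all genes tested were called, 23.8% lower and 23.4% higher. Hba-a1 ran from 465 over 834 to 1547 CPM in Dchs1 Het kidneys, against 630, 969.8 and 1887 CPM in WT kidneys, where 17 of 30 Het libraries lay under the WT median and 5 below the lowest WT library (-0.32 ± 0.113; adjusted p = 0.0174). Hbb-bt ran from 35.3 over 64.4 to 129 CPM in Het kidneys, against 45.1, 72.6 and 151 CPM in WT kidneys (-0.34 ± 0.126; adjusted p = 0.0235). Hba-a2 and Hbb-bs did not pass, and the sums came to -0.31 ± 0.114 for alpha globin (adjusted p = 0.0224) and -0.27 ± 0.112 for beta globin (adjusted p = 0.0445). Neither call of a single member held in limma or in the longest number run, where Hba-a1 came to -0.26 and Hbb-bt to -0.32 and 0 members were called. Lymphocyte genes moved in the same comparison: 3 of 3 B cell genes tested and 5 of 5 T and NK cell genes tested were lower, Lck at -0.49 and Cd79a at -0.62. The T and NK list summed to 2.79 to 6.98 TPM in Het kidneys and 4.07 to 10.2 TPM in WT kidneys, with 10 and 5 of 12 genes under 0.5 TPM, and its part was not tested.

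In Fat4 kidney 3 of 8 members were called, Slc4a1 and Hbb-bt lower and Tfrc higher, where 17.1% of all genes tested were called, 7.87% lower and 9.21% higher. Slc4a1 ran from 20.7 over 30.6 to 48.7 CPM in Fat4 Het kidneys, against 23.2, 37.0 and 49.2 CPM in WT kidneys, where 23 of 30 Het libraries lay under the WT median (-0.25 ± 0.0642; adjusted p = 0.00544). Hbb-bt ran from 41.1 over 63.8 to 105.5 CPM in Het kidneys, against 44.7, 75.4 and 128 CPM in WT kidneys (-0.27 ± 0.0939; adjusted p = 0.0401). Hba-a1 (-0.23 ± 0.0896, adjusted p = 0.0710) and Alas2 (-0.23 ± 0.0946, adjusted p = 0.0803) had a like fold change and did not pass, nor did the summed alpha (-0.22, adjusted p = 0.0717) and beta globins (-0.22, adjusted p = 0.0642). The count of calls moved with the library numbers. In the longest run 5 members were called, Hba-a1 (-0.29) and Alas2 (-0.30) among them, and with the run as a covariate 1 was, Slc4a1 (-0.25).

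Slc4a1 did not pass in Dchs1 kidney, where Het ran from 18.4 over 29.9 to 42.9 CPM and WT from 17.3 over 31.2 to 41.9 CPM (-0.09 ± 0.0734; adjusted p = 0.297). Genes of intercalated cells, the kidney cells that use Slc4a1, went opposite ways in the lines, 7 of 8 higher in Dchs1 Het and 3 of 8 lower in Fat4 Het kidneys. Among all genes 23.4% were higher in Dchs1 Het and 7.87% lower in Fat4 Het kidneys. The list summed to 125 to 305 TPM in Dchs1 Het (median 229) and 102 to 273 TPM in Dchs1 WT kidneys (median 185), and to 121 to 292 TPM in Fat4 Het (median 198) and 130 to 280 TPM in Fat4 WT kidneys (median 214), with none of the 8 genes under 0.5 TPM. Among WT kidneys Slc4a1 did not follow that list beyond the spread (r = 0.151 and 0.309, rho = 0.171 and 0.412, r without 2 libraries 0.337 and 0.431, permutation p = 0.427 and 0.0977, adjusted p = 0.653 and 0.236). Whether the Slc4a1 change goes with it was not tested.

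In Dchs1 liver, Alas2 fell and no globin entry or sum was called. Alas2 ran from 24.6 over 45.5 to 68.3 CPM in Dchs1 Het livers, against 39.4, 72.4 and 113 CPM in WT livers. All 29 Het libraries lay below the WT median and 11 below the lowest WT library (-0.60 ± 0.0950; adjusted p = 4.45e-07), with means of 46.3 ± 12.5 CPM in Het (SD, n = 29) and 72.2 ± 17.4 CPM in WT (SD, n = 30). Of the 6 members tested 2 were called, Alas2 lower and Tfrc higher, where 49.8% of all genes tested were called, 25.4% lower and 24.3% higher.

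The globins of Dchs1 liver stayed within the spread. Hbb-bt ran from 7.61 over 23.5 to 62.5 CPM in Het livers and from 9.95 over 24.2 to 89.1 CPM in WT livers (-0.22 ± 0.217; adjusted p = 0.408), and the summed alpha and beta globins came to -0.17 and -0.13 (adjusted p = 0.546 and 0.642). Of 4 platelet genes tested in these livers 2 were higher and 0 lower, beside 24.3% higher and 25.4% lower among all genes. Pf4 came to +0.59 (adjusted p = 0.000581) and Clec1b to +0.25 (adjusted p = 0.0147). The platelet list of 12 summed to 8.53 to 19.8 TPM in Het (median 14.3) and 7.93 to 18.4 TPM in WT livers (median 12.3), with 8 of its genes under 0.5 TPM in each, and its part was not tested. Alas2 in liver was also lower in the longest number run (-0.52). The Alas2 effect differed from that of Fat4 liver, Dchs1 minus Fat4 being -0.49 ± 0.135 (adjusted p = 0.00387), but not past the threshold in the longest number run (-0.36, adjusted p = 0.0507). Fat4 livers held 26.5 over 53.3 to 102 CPM in Het and 28.03 over 58.3 to 112 CPM in WT libraries (-0.09 ± 0.0932; adjusted p = 0.640). Fat4 liver gave 0 calls among 5 members tested in edgeR and 1 at an unadjusted p under 0.05, where 7.15% of all genes were called, 3.51% lower and 3.64% higher. Hba-a2 of Fat4 liver, at 20.5 CPM in the median Het and 18.1 CPM in the median WT library, had a log2 fold change of +1.12 ± 0.391 (adjusted p = 0.0673) with 5 Het libraries above the highest WT library of 94.6 CPM, while summed alpha and beta globin came to 0.12 and 0.11 (adjusted p = 0.831 and 0.861).

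In the Dchs1 line Tfrc was the member whose Het effect differed most between tissues. In heart all 30 Het libraries lay below the WT median and 10 below the lowest WT library, at 4.13 over 7.96 to 10.69 CPM in Het and 6.40 over 10.8 to 16.2 CPM in WT hearts (-0.56 ± 0.0829; adjusted p = 7.54e-08). In Dchs1 lung 28 of 30 Het libraries lay below the WT median, at 22.0 over 48.8 to 74.3 CPM in Het and 31.9 over 68.1 to 90.9 CPM in WT lungs (-0.37 ± 0.0967; adjusted p = 0.00345). Liver went the other way, with 24 of 29 Het libraries above the WT median and 9 above the highest WT library, at 27.8 over 40.2 to 82.7 CPM in Het and 16.5 over 31.5 to 48.4 CPM in WT livers (+0.49 ± 0.108; adjusted p = 0.000131). Kidney did not pass (-0.15 ± 0.104; adjusted p = 0.233). The test of the difference between the 4 tissues was called for 52.2% of all genes in the Dchs1 line, where it passed for Tfrc (F = 21.65, adjusted p = 3.72e-11) and for Slc4a1 (F = 4.26, adjusted p = 0.0140), and for no other member, and for 7.13% of all genes and 0 members in the Fat4 line (2 members at an unadjusted p under 0.05).

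In the Fat4 line Tfrc was higher in Het kidney, at 24.4 over 43.1 to 65.3 CPM in Het and 20.9 over 34.6 to 59.6 CPM in WT kidneys, with 25 of 30 Het libraries above the WT median (+0.29 ± 0.0973; adjusted p = 0.0324). Heart (0.0034, adjusted p = 0.987), liver (+0.20, adjusted p = 0.345) and lung (-0.09, adjusted p = 0.579) did not pass. Between the lines 1 member was called in heart, 1 in kidney, 2 in liver and 0 in lung (lung in edgeR, 2 at an unadjusted p under 0.05), against 25.5%, 33.5%, 23.6% and 5% of all genes. The Tfrc effect differed in heart (-0.57 ± 0.107, adjusted p = 1.97e-05) and kidney (-0.43 ± 0.145, adjusted p = 0.0146) and did not pass in liver (+0.31, adjusted p = 0.164) or lung (-0.28, adjusted p = 0.143). Among WT kidneys Tfrc ran against the intercalated cell list (r = -0.750 and -0.473, rho = -0.725 and -0.482, r without 2 libraries -0.653 and -0.502, permutation p = 2e-05 and 0.00893, adjusted p = 0.000288 and 0.0484).

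**Figure D4:**
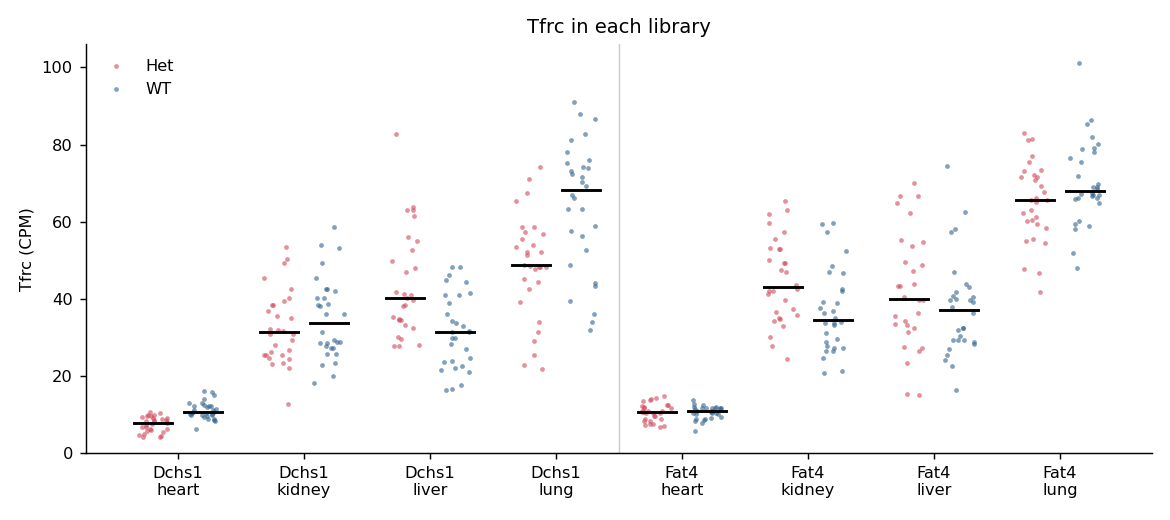
Tfrc in CPM (linear axis) in every library of the 16 groups, Het in red left of WT in blue, with the median as a black bar. Dchs1 Het hearts and lungs sit lower than their WT groups (medians 7.96 against 10.8 CPM and 48.8 against 68.1 CPM) and Dchs1 Het livers and Fat4 Het kidneys higher (40.2 against 31.5 CPM and 43.1 against 34.6 CPM).

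In Dchs1 lung, Tfrc was the only one of 7 members tested that was called, where 20% of all genes tested were called, 10.4% lower and 9.6% higher. Slc4a1 ran from 0.228 over 1.27 to 7.63 CPM in Het lungs and from 0.523 over 2.84 to 11.5 CPM in WT lungs, where 22 of 30 Het libraries lay under the WT median (-0.57 ± 0.276; adjusted p = 0.145). Hba-a1 ran from 1958 over 4735 to 12755 CPM in Het lungs and from 2001 over 4638 to 13275 CPM in WT lungs (-0.10 ± 0.175; adjusted p = 0.784), and Alas2 came to -0.07 ± 0.132 (adjusted p = 0.783). Summed alpha globin came to -0.11 ± 0.174 and beta globin to -0.13 ± 0.161 (adjusted p = 0.749 and 0.679). The globins and Alas2 therefore did not move beyond the spread in the tissue where they were highest. Other blood cell genes did: 6 of 8 B cell, 10 of 12 T and NK cell and 5 of 12 platelet genes tested were lower and 2 of 8 neutrophil genes higher in Dchs1 Het lungs. The B cell list summed to 24.04 to 265 TPM in Het (median 87.9) and 19.7 to 415 TPM in WT lungs (median 159), the neutrophil list to 205 to 1776 TPM in Het (median 893) and 391 to 1550 TPM in WT lungs (median 603). Without 3 Het and 2 WT libraries that stood apart, the count of calls stayed 1. Fat4 lung gave 0 calls among 7 members in edgeR, in DESeq2 and at an unadjusted p under 0.05, where 0.136% of all genes were called, 0.0259% lower and 0.11% higher, and its members lay between -0.09 and 0.05, with the summed alpha and beta globins at 0.024 and -0.0064 (adjusted p = 0.966 and 0.994).

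The division of beta globin reads among the 4 entries was examined as a ratio within each library, which does not depend on how much globin the sample held. The counting split near-identical reads, gave Hbb-bt and Hbb-b2 the same estimate and gave most reads to Hbb-b1. Whether the ratio follows the make-up of beta globin itself was not tested. The ratio of Hbb-bt and Hbb-b2 together to Hbb-bs and Hbb-b1 together was lower in Dchs1 Het than in WT libraries in all 4 tissues. Its mean log2 value was -2.29 ± 0.196 in Het and -2.18 ± 0.140 in WT hearts, -2.40 ± 0.120 in Het and -2.32 ± 0.152 in WT kidneys, -2.34 ± 0.145 in Het and -2.22 ± 0.109 in WT livers, and -2.43 ± 0.144 in Het and -2.32 ± 0.131 in WT lungs (SD, n = 30, Dchs1 Het liver 29). The differences were -0.11, -0.09, -0.12 and -0.11 (two-sided permutation test, 100000 resamples, p = 0.0200, 0.0165, 0.00071 and 0.00497, adjusted over 8 tests 0.0399, 0.0399, 0.00568 and 0.0199). Only 9, 7 and 5 of 30 Het libraries in heart, kidney and lung and 7 of 29 in liver lay above the WT median. From TPM in place of counts, the liver difference alone passed (adjusted permutation p = 0.00832, against 0.135, 0.0816 and 0.0642 in heart, kidney and lung).

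In the Fat4 line the same ratio did not pass in any tissue, with differences of -0.0040, -0.052, -0.017 and 0.021 in heart, kidney, liver and lung (adjusted permutation p = 0.900, 0.114, 0.840 and 0.574). Within the longest number run it passed in Fat4 kidney, at -0.086 (24 Het and 24 WT libraries, adjusted permutation p = 0.0188), where Dchs1 kidney came to -0.13 (adjusted permutation p = 0.00794). The difference between the lines was tested for each tissue and passed in lung (-0.13, adjusted permutation p = 0.0233) and not in heart (-0.10, 0.127), liver (-0.10, 0.127) or kidney (-0.04, 0.451). This ratio was chosen after the data were seen. The 24 planned tests of alpha to beta globin, Hba-a2 to Hba-a1 and Hbb-bt to Hbb-bs gave 0 calls, the lowest adjusted permutation p being 0.626 and the lowest unadjusted one 0.0649.

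**Figure D5:**
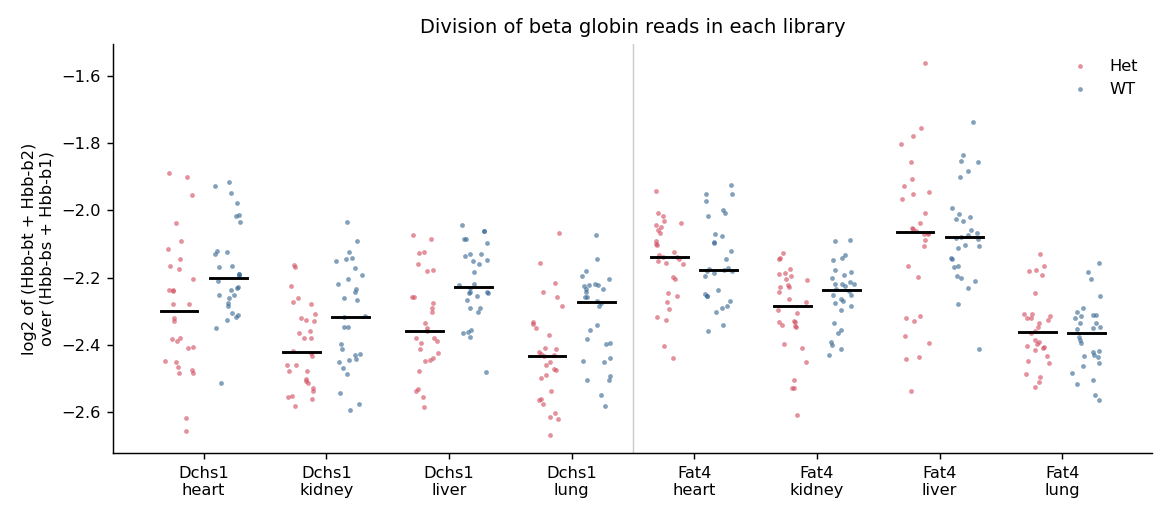
Log2 ratio of Hbb-bt and Hbb-b2 together to Hbb-bs and Hbb-b1 together in every library, Het in red left of WT in blue, with the median as a black bar. In the Dchs1 line the Het groups sit 0.09 to 0.12 lower than WT on average with wide overlap, and in the Fat4 line differences stay between -0.05 and 0.02.

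Other genes of heme synthesis, of the red cell membrane and of iron handling were counted from lists. On the heme synthesis list of 12 genes, all tested, 7 were lower and 2 higher in Dchs1 Het hearts, beside 24.1% lower and 26.1% higher among all genes there. Alas1, the form of the first heme enzyme used outside red cells, had a log2 fold change of -0.62 ± 0.0619 (adjusted p = 1.97e-12) and Cpox, which acts late in the path, one of -0.38. In Dchs1 Het livers, where 25.4% of all genes were lower and 24.3% higher, 7 of 12 were lower and 0 higher, among them Abcb10, a mitochondrial transporter of erythroid cells, at -0.72 ± 0.0831, and Urod, at -0.33. In Dchs1 kidney (23.8% of all genes lower, 23.4% higher) 4 were lower and 1 higher, and the higher one was Alas1 (+0.78). In Fat4 kidney (7.87% of all genes lower, 9.21% higher) 4 were higher and 0 lower, Fech, which inserts iron, at +0.14.

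On the membrane list of 16 genes, Dchs1 heart had 5 lower and 1 higher of 9 tested, with Ank1 (ankyrin) at -0.34. Among all genes there, 24.1% were lower and 26.1% higher. Dchs1 kidney had 1 lower and 3 higher of 12, Sptb at +0.39, where 47.2% of all genes were called, and Dchs1 lung 3 lower and 2 higher of 10, where 20% were. The membrane list summed to a median of 200 TPM in Dchs1 Het and 292 TPM in Dchs1 WT hearts, and to 63.8 TPM in Dchs1 WT lungs. The globin list had the other order, at 5934 TPM in Dchs1 WT hearts and 31667 TPM in Dchs1 WT lungs. How much of the membrane list came from red cells was not tested. Of the erythroid regulators and enzymes, 3 of 8 were lower and 0 higher in Dchs1 heart, beside 24.1% lower among all genes. Bpgm (-0.59 ± 0.169) was among the lower ones. In Fat4 kidney 2 of 9 were lower, beside 7.87% of all genes, among them Epor (-0.24), the erythropoietin receptor. On the iron list of 10 genes, Dchs1 liver had 6 lower and 1 higher of 10 tested, beside 25.4% lower and 24.3% higher among all genes. Trf (transferrin) came to -0.40, Slc11a2 (the iron importer DMT1) to -0.39, and Tfrc was the higher one. Fat4 kidney had 3 higher and 0 lower of 9, beside 9.21% higher and 7.87% lower among all genes. Fat4 heart had 0 calls on all of these lists, where 1.6% of all genes were called.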

How the data were processed

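The authors deposited estimated counts for every gene of both lines, and TPM values of those libraries, which correct for transcript length and library total and hold no depth. Of the count values 15.52% (Dchs1 line) and 15.69% (Fat4 line) were not whole, so reads that match several genes had been divided among them, and single globin entries are uncertain. Per the labels' protocols, RNA was extracted with magnetic beads, poly(A)-selected and made into strand-specific libraries for single-end sequencing on an Illumina HiSeq; the protocols give both 75 bases and 33 cycles. Per the submitters' processing notes, bcl2fastq 2.17, FastQC and GRCm38 were used; what aligned and counted the reads is not given in the sources used here. All columns matched a labelled library, and 24375 of 24475 identifiers matched a symbol.

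The test was the quasi-likelihood F test of edgeR 4.0.16 (R 4.3.3) on the rounded estimated counts, after filterByExpr (minimum count 10, minimum total 15) and TMM scaling, with Benjamini-Hochberg adjustment over all genes tested, threshold 0.05. Each comparison of a line and tissue was fitted alone. Differences of the Het effect between lines or tissues were interaction terms. CPM are counts per 1000000 counts of a library. Correlations used log2 CPM (TMM-scaled, prior count 0.5), with 100000 permutations in Python 3.11.15 (scipy 1.17.1, numpy 2.4.6, pandas 2.3.3). Alternatives were DESeq2 1.42.0, its size factors in edgeR, scaling without globins, no filter, limma 3.58.1 on log2(TPM + 1) and log2(TPM + 0.1), a robust fit, runs of library numbers (gaps of at most 2) as covariate or the longest run alone, and leaving out outlying libraries (median correlation over 5 median absolute deviations low). Summed globins and the beta globin ratio were added after the data were seen. Fits were tested on simulated data. No pair of libraries of a group agreed within sampling noise (lowest chi-square per gene 3.48). With 10720364 reads or more, 1 CPM is 10 or more reads.

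The members and the gene lists were chosen with earlier results of these data known. Genes named are the 8 members, up to 3 called genes with the smallest p of each list in each comparison, and the 10 genes most like Alas2, of which some are not reported here. Globin coding sequences are from GENCODE transcripts (GRCm38), and promoter sequences are RefSeq's (GRCm38.p6). The Slc4a1 promoter was not used here.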

Additional observations from a re-analysis of the deposited data

Results flagged for a closer look

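The Het effect differed between the lines (interaction term, edgeR) for Tfrc in heart, Dchs1 minus Fat4 being -0.572 on the log2 scale, and for Tfrc in kidney, at -0.430. It differed for Alas2 in liver, at -0.492, a call not kept in the longest number run (-0.361, adjusted p = 0.0507). It differed for Hba-a2 in liver, at -1.67, where Hba-a1 and Hba-a2 reads can be exchanged by the counting and the summed alpha globin was not called in either line. Within the Dchs1 line the Het effect differed between the 4 tissues for Tfrc, with F = 21.65, and for Slc4a1, with F = 4.26. The beta globin ratio differed between the lines in lung, Dchs1 minus Fat4 being -0.127 on the log2 scale.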

How the results depend on the processing

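Of 553 alternative values of the members' Het against WT fold changes (11 settings), 519 kept their direction, 22 lost a call and 3 gained one. The 34 that changed direction had no call on either side. Precision is limited by depth for Epb42, Slc4a1 outside kidney and Hbb-bs, and by read division for single globins.

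Counts of called members moved by over 1.5 times as follows. In Dchs1 heart limma on log2(TPM + 1), with 0.1 in place of 1 and without filter called 2. In Dchs1 kidney the same 3 settings called 0 and the longest number run 0. In Dchs1 lung DESeq2, no low-count filter and limma without filter called 2. In Fat4 kidney limma without filter called 1, the run as covariate 1 and the longest run 5. Between the lines the longest run called 1 in liver (Hba-a2, with Alas2 no longer called) and 1 in lung (Tfrc). Pairs of members that correlated among WT libraries came to 10 in Dchs1 heart and 1 in Dchs1 liver in the longest run, and to 6 in Dchs1 liver and 11 in Fat4 liver on log2(TPM + 1). The cause was not tested.

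Directions that turned were these. Hba-a1 in Dchs1 liver came to 0.73, 1.06 and 0.73 in the 3 limma settings, 0.16 with the run as covariate and 0.38 in the longest run, where Hbb-bt came to 0.15. In Dchs1 lung the longest run gave Hba-a1 0.022 and Alas2 0.035. In Fat4 heart limma gave Hbb-bs -0.071, -0.18 and -0.071 and Alas2 -0.0086, -0.012 and -0.0086; the covariate gave Hba-a1 -0.23, Hba-a2 -0.24, Hbb-bs -0.088, Hbb-bt -0.24 and Alas2 -0.27; the longest run gave Hba-a1 -0.088, Hba-a2 -0.069, Hbb-bt -0.049 and Alas2 -0.083; and without 1 outlying library Tfrc was -0.0023. Hba-a1 in Fat4 liver came to -0.10 in each limma setting, -0.024 with the covariate, -0.024 in the longest run and -0.031 without outlying libraries. Hbb-bt in Fat4 lung came to 0.055 in each limma setting and 0.0072 without 1 outlying library. Between WT tissues limma gave Hba-a2 kidney minus liver 0.89 (Dchs1), Alas2 liver minus lung -0.80 and -0.91, Tfrc liver minus lung -1.06 and -0.99, and in the Fat4 line Hbb-bs heart minus kidney -0.13 and heart minus lung -0.54 for Slc4a1, -1.92 for Hbb-bt and -1.94 for Alas2. Between the lines the longest run gave, in kidney, Hba-a1 0.022, Hba-a2 0.11 and Hbb-bt 0.022, and in liver Hba-a1 0.42 and Hbb-bt 0.15. The beta ratio in Fat4 heart was 0.014 in the longest run, r of Hbb-bt with Alas2 was -0.039 in the longest run of Dchs1 liver, and r of Hbb-bt with Tfrc was -0.209 in Fat4 lung on log2(TPM + 1). The cause was not tested.

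Fat4 lung has a single number run, so the run settings gave no value there. No paired analysis was possible because every library has its own number, which no other group shares.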

Other observations

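Car1, carbonic anhydrase of red cells and other tissues, had the smallest p of the erythroid regulators and enzymes in Dchs1 liver, with a log2 fold change of -1.72 ± 0.196 (edgeR, adjusted p = 9.42e-11), while Bnip3l, which clears mitochondria from maturing red cells, came to +0.46 ± 0.0565 (adjusted p = 7.40e-10). On that list 1 gene was lower and 1 higher of 10 tested in Dchs1 liver, beside 25.4% lower and 24.3% higher among all genes. Among WT livers the genes most like Alas2 in both lines, chosen after their values were seen, were Gstm2 (r = 0.760 in Dchs1 WT and 0.721 in Fat4 WT livers), Cryzl2 (0.808 and 0.716), Pcca (0.656 and 0.676) and Gstm6 (0.731 and 0.655), and none of the first 10 was a globin; these are descriptions over 30 libraries each. Trf, the gene of transferrin, had r of 0.799 and 0.625 with Alas2 there.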
